A study of Mus musculus with 25 samples.

Results

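The comparison set livers of mice that had received a liver carcinogen and then 2 drugs (DEN_CAF_SOR) against livers of mice given saline and vehicles only (Untreated). Its members are 10 of the 25 liver RNA libraries of the study, 5 DEN_CAF_SOR and 5 Untreated, chosen by their labels. The 6 DEN libraries, from mice with the carcinogen and vehicles but no drug, served as a second point of comparison. All mice were labelled as male C3H/HeJ, a strain prone to liver cancer, aged 5 weeks on arrival. DEN_CAF_SOR mice received diethylnitrosamine (DEN) into the abdominal cavity at 25 mg/kg, 2 times a week for 3 weeks, in 5 cycles over 4 months. After a month without treatment they were given caffeine (CAF, 50 mg/kg, 3 times a week, in tap water) and sorafenib (SOR, 30 mg/kg, 2 times a week, in corn oil with 2% DMSO) by gavage for 3 weeks. DEN mice had the same injections, followed by both vehicles. Untreated mice had 0.9% saline injections on the same schedule, followed by both vehicles. Each library came from a different mouse according to the titles. The comparison asks which of the carcinogen's changes in liver RNA were present after treatment with both drugs. It holds no group with the drugs but without the carcinogen, so effects of drugs and carcinogen cannot be told apart in DEN_CAF_SOR against Untreated.

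DEN is an alkylating agent that cytochrome P450 enzymes of pericentral hepatocytes turn into a DNA-damaging form, and mice exposed to it develop hepatocellular tumours. Sorafenib inhibits several kinases, among them the receptors for VEGF and PDGF, and is used against liver cancer. Caffeine blocks adenosine receptors and is broken down mainly by the P450 enzyme CYP1A2. In exposed livers, genes known to respond include targets of the DNA damage sensor p53, fetal liver genes that tumours switch on again, and detoxifying enzymes of the NRF2 pathway.

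Assigned reads per library ran from 17978389 to 21992613 in DEN_CAF_SOR, 15821764 to 19925372 in DEN and 15723658 to 19309618 in Untreated. Hepatocyte markers were abundant throughout, with Alb (albumin) at 17426 to 28199 FPKM in DEN_CAF_SOR and 22294 to 33069 FPKM in Untreated livers, as the liver label says. Here FPKM means reads per gene, scaled to gene length and to the assigned reads of the library. Xist, which coats the silenced X in female cells, was at 0.00930 to 0.0600 FPKM in DEN_CAF_SOR livers, and at 0.0106 and 0.0264 FPKM in Untreated 1 and 2. It was at 79.7, 85.9 and 45.3 FPKM in Untreated 3, 4 and 5, and these 3 libraries go against the male label. The Y-linked gene Ddx3y was at 12.6 to 16.2 FPKM in DEN_CAF_SOR livers, 12.6 and 15.7 FPKM in Untreated 1 and 2, and 1.01, 0.299 and 0.562 FPKM in Untreated 3, 4 and 5. Results are therefore given with all 5 Untreated libraries and again with Untreated 1 and 2 alone. Mitochondrial genes took 15.7% and 18.7% of reads in DEN_CAF_SOR 3 and 4 and 5.65% to 8.07% in the other DEN_CAF_SOR libraries, and 13.5% in Untreated 3 against 6.36% to 8.69% in the other Untreated libraries.

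**Figure D1:**
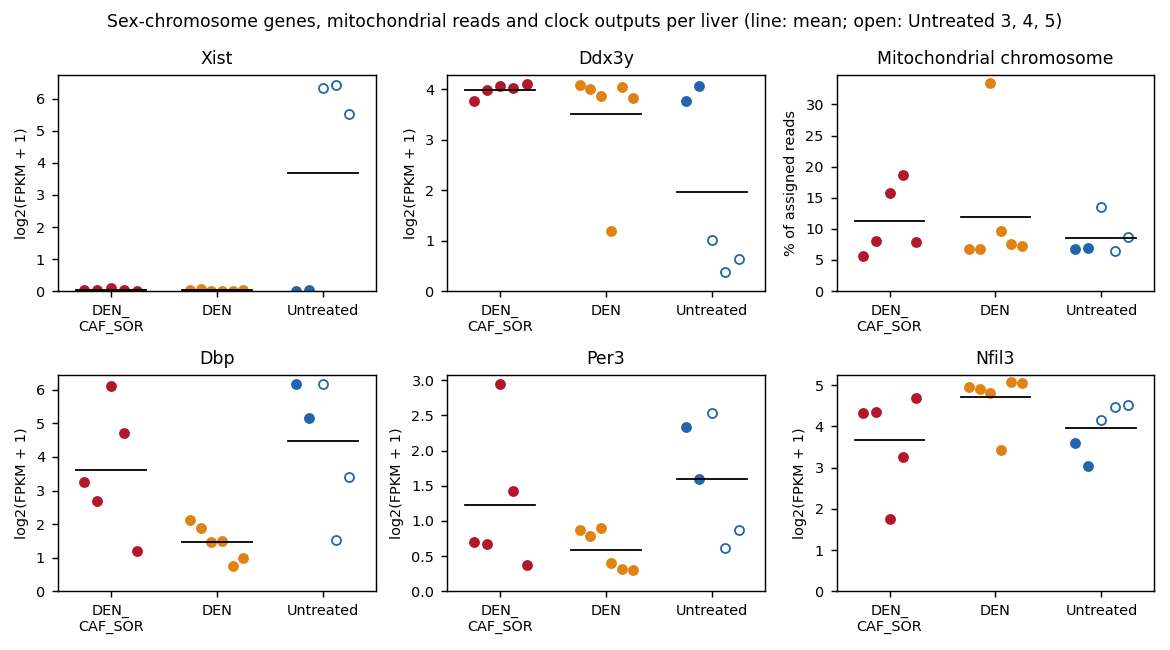
Level of Xist and Ddx3y, the share of reads from the mitochondrial chromosome, and the clock genes Dbp, Per3 and Nfil3 in each liver, with DEN_CAF_SOR at the left, DEN in the middle and Untreated at the right. Points are livers, lines are means, and open points are Untreated 3, 4 and 5, where Xist was high and Ddx3y low.

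Of 12741 genes tested, 63 (0.494%) passed the test in DEN_CAF_SOR against Untreated livers, which is limma's moderated test on log2(FPKM + 1) with a Benjamini-Hochberg adjusted p under 0.05. In that comparison 27 genes were higher (0.212%) and 36 lower (0.283%) in DEN_CAF_SOR livers. The split depended on the scaling: it was 33 higher and 78 lower with TMM factors, 32 higher and 80 lower with DESeq2 size factors, and 39 higher and 24 lower when mitochondrial reads were left out of the totals. Protein-coding genes made up 44 of the 63, of which 21 were higher and 23 lower. In 56 of the 63 no DEN_CAF_SOR liver lay inside the range of the Untreated livers. Over all genes tested, every DEN_CAF_SOR liver lay above every Untreated liver for 3.12% and below for 1.48%. On the recovered reads, edgeR called 166 genes (1.3%; 90 higher, 0.706%, and 76 lower, 0.596%), among them 55 of the 63, and DESeq2 called 395 (3.1%; 230 higher, 1.81%, and 165 lower, 1.3%), among them 61 of the 63. Leaving out each DEN_CAF_SOR or Untreated library in turn left 34 to 73 calls, with the lowest counts without DEN_CAF_SOR 1 (34), Untreated 4 (34), DEN_CAF_SOR 4 (35) and Untreated 5 (38). In all 10 of these fits 26 of the 63 were called, 9 higher and 17 lower. The individual values follow by the known roles of the genes, and fold changes are differences on the log2(FPKM + 1) scale with standard errors (SE).

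**Figure D2:**
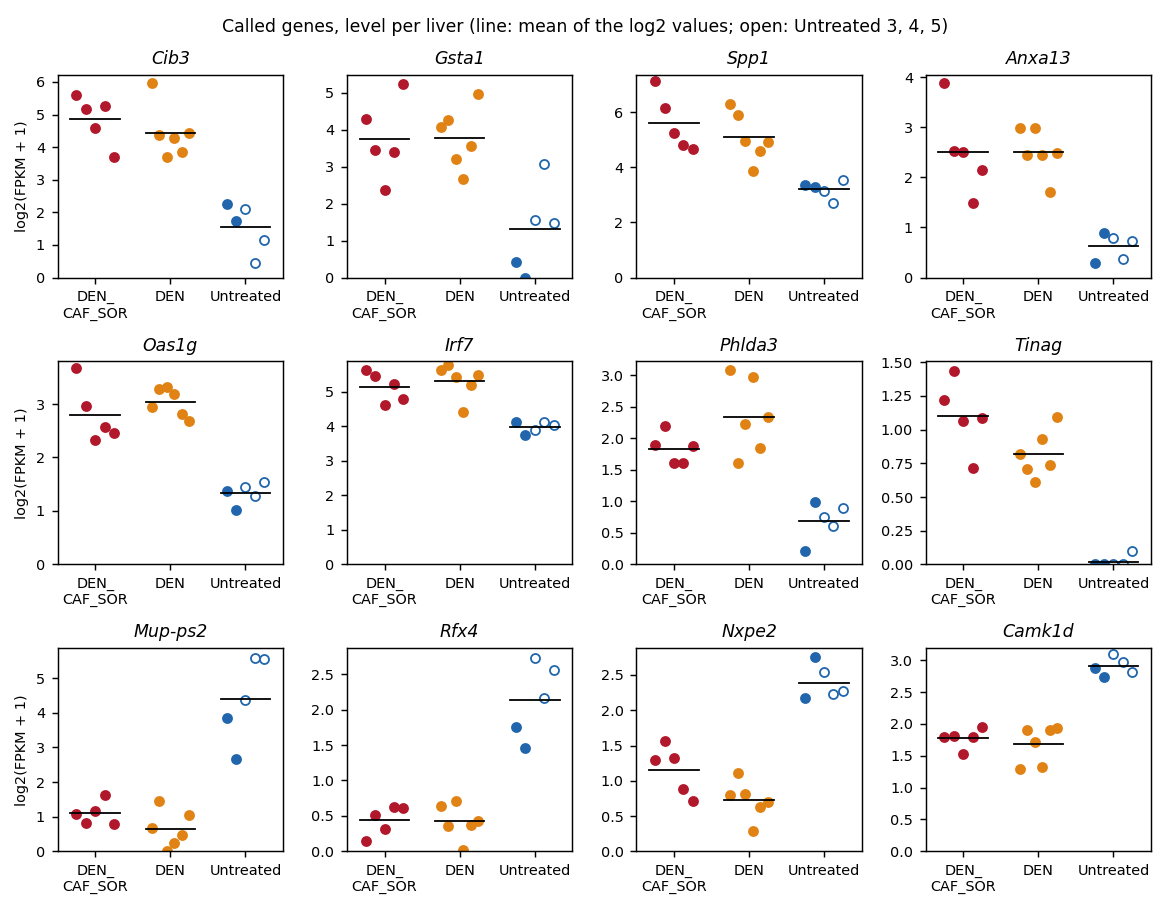
Level of 12 of the called genes on the log2(FPKM + 1) scale in each liver, with DEN_CAF_SOR at the left, DEN in the middle and Untreated at the right. Points are livers, lines are means of the log2 values and open points are Untreated 3, 4 and 5. DEN_CAF_SOR and DEN livers overlap in every panel, and Gsta1 is the panel in which 1 Untreated liver reaches the DEN_CAF_SOR range.

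Among called genes, the largest rise was that of Cib3, a member of the calcium- and integrin-binding protein family (chromosome 8, 72958179 to 72966840, GRCm39). Cib3 had 47.4, 35.4, 22.9, 37.1 and 11.9 FPKM in DEN_CAF_SOR livers, against 3.81, 2.36, 3.27, 0.372 and 1.22 FPKM in Untreated livers. All 5 DEN_CAF_SOR livers lay above all 5 Untreated livers, and the log2 fold change was 3.32 ± 0.51 (limma, adjusted p = 0.00135). In DEN livers Cib3 ran from 12.03 to 60.96 FPKM. The alpha-class glutathione S-transferase Gsta1, which conjugates electrophiles to glutathione and is an NRF2 target (chromosome 9, 78137938 to 78149966), also rose. Gsta1 had 18.6, 9.99, 4.18, 9.59 and 36.6 FPKM in DEN_CAF_SOR livers, and 0.333, 0, 1.96, 7.37 and 1.78 FPKM in Untreated livers. Untreated 4 lay inside the DEN_CAF_SOR range, and the log2 fold change was 2.45 ± 0.55 (adjusted p = 0.043). Its neighbour Gm3776 rose by 2.60 ± 0.53 (adjusted p = 0.0219), and since the 2 genes are near-identical copies their reads could have been split between them. The call of Gsta1 held without DEN_CAF_SOR 3 or Untreated 4 and was lost in the 8 other fits that left out 1 library, with an adjusted p of up to 0.124 without DEN_CAF_SOR 1. That of Gm3776 held in 3 of the 10 fits, those without DEN_CAF_SOR 3, Untreated 3 or Untreated 4 (adjusted p up to 0.0658 without DEN_CAF_SOR 4).

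Gsta1 was the single called member of 28 tested NRF2 targets, against 0.494% called over all genes tested. Of these, 21 had a positive fold change, with a median of 0.34, against 54.9% positive and a median of 0.03 over all genes tested. Among the other glutathione S-transferases, Gsta2 averaged 145 FPKM in DEN_CAF_SOR and 37.9 FPKM in Untreated livers without passing the test (adjusted p = 0.114). Gstm3 averaged 301 FPKM in DEN_CAF_SOR and 56.6 FPKM in Untreated livers (adjusted p = 0.124). For both, each DEN_CAF_SOR liver lay above each Untreated liver. Gsta3, of the same family, showed no such rise, with a log2 fold change of -0.30 to 0.18 over the 10 fits that left out 1 library. Nqo1, the quinone reductase often used to read NRF2 activity, averaged 6.19 FPKM in DEN_CAF_SOR and 4.26 FPKM in Untreated livers with overlapping ranges (adjusted p = 0.643).

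Among p53 targets, Phlda3, whose product restrains AKT signalling (chromosome 1, 135693857 to 135696874), rose. Phlda3 had 2.72, 3.56, 2.04, 2.05 and 2.68 FPKM in DEN_CAF_SOR livers, against 0.163, 0.989, 0.682, 0.532 and 0.859 FPKM in Untreated livers. The groups did not overlap, and the log2 fold change was 1.14 ± 0.26 (limma, adjusted p = 0.0407), a call that held without Untreated 2 and was lost in the 9 other fits that left out 1 library (adjusted p up to 0.112 without DEN_CAF_SOR 2). The cell cycle inhibitor Cdkn1a had 9.05, 11.9, 4.17, 4.89 and 16.1 FPKM in DEN_CAF_SOR livers, against 0.412, 1.52, 1.20, 1.59 and 1.25 FPKM in Untreated livers. These ranges did not overlap either, but Cdkn1a did not pass limma's test (log2 fold change 2.11 ± 0.53, adjusted p = 0.0744), while edgeR's adjusted p was 0.0312. Bax, an effector of apoptosis, averaged 24.4 FPKM in DEN_CAF_SOR and 17.2 FPKM in Untreated livers (adjusted p = 0.36). The cyclin Ccng1 averaged 12.6 FPKM in DEN_CAF_SOR and 7.91 FPKM in Untreated livers (adjusted p = 0.0896). Of 17 tested p53 targets 1 was called, against 0.494% of all genes tested. Of the 17, 5 had all DEN_CAF_SOR livers above all Untreated livers, against 3.12% of all genes tested, and the median log2 fold change was 0.33.

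Of 19 tested oncofetal and tumour marker genes, 1 passed the test, the secreted phosphoprotein Spp1 (osteopontin), which bile duct cells and liver tumours express (chromosome 5, 104582984 to 104588916). Spp1 had 139.9, 69.1, 36.8, 26.6 and 24.1 FPKM in DEN_CAF_SOR livers, against 9.22, 8.67, 7.85, 5.53 and 10.7 FPKM in Untreated livers. DEN_CAF_SOR 1 was the highest and the groups did not overlap (log2 fold change 2.38 ± 0.55, adjusted p = 0.0475). The call held without DEN_CAF_SOR 5 and was lost in the 9 other fits that left out 1 library (adjusted p up to 0.140 without DEN_CAF_SOR 1). H19, an imprinted fetal RNA that liver tumours often re-express (chromosome 7, 142129262 to 142131886), did not pass. H19 had 89.3, 15.1, 6.62, 21.2 and 6.42 FPKM in DEN_CAF_SOR livers, against 0, 0.158, 0.715, 0.178 and 0.834 FPKM in Untreated livers. Each DEN_CAF_SOR liver was above each Untreated liver, with a spread of more than 10-fold within DEN_CAF_SOR (log2 fold change 3.74 ± 0.99, limma adjusted p = 0.0896, edgeR adjusted p = 0.0322). In DEN livers H19 ran from 4.19 to 1130 FPKM. Afp, the fetal albumin-like protein used as a tumour marker in blood, had 0.382 to 3.81 FPKM in DEN_CAF_SOR and 0.0944 to 0.308 FPKM in Untreated livers (adjusted p = 0.786). The glypican Gpc3, another clinical tumour marker, had 0.2068 to 1.496 FPKM in DEN_CAF_SOR and 0.0661 to 0.656 FPKM in Untreated livers (adjusted p = 0.684). The proliferation marker Mki67 had 0.290 to 1.38 FPKM in DEN_CAF_SOR and 0.107 to 0.205 FPKM in Untreated livers (adjusted p = 0.451). In the oncofetal list 9 of 19 genes had all DEN_CAF_SOR livers above all Untreated livers, against 3.12% of all genes tested, where 0.494% were called. The list, chosen with earlier results of these data known, had a median log2 fold change of 1.07, and of 0.91 with Untreated 1 and 2 alone. None of 15 tested proliferation genes was called (median 0.48).

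**Figure D3:**
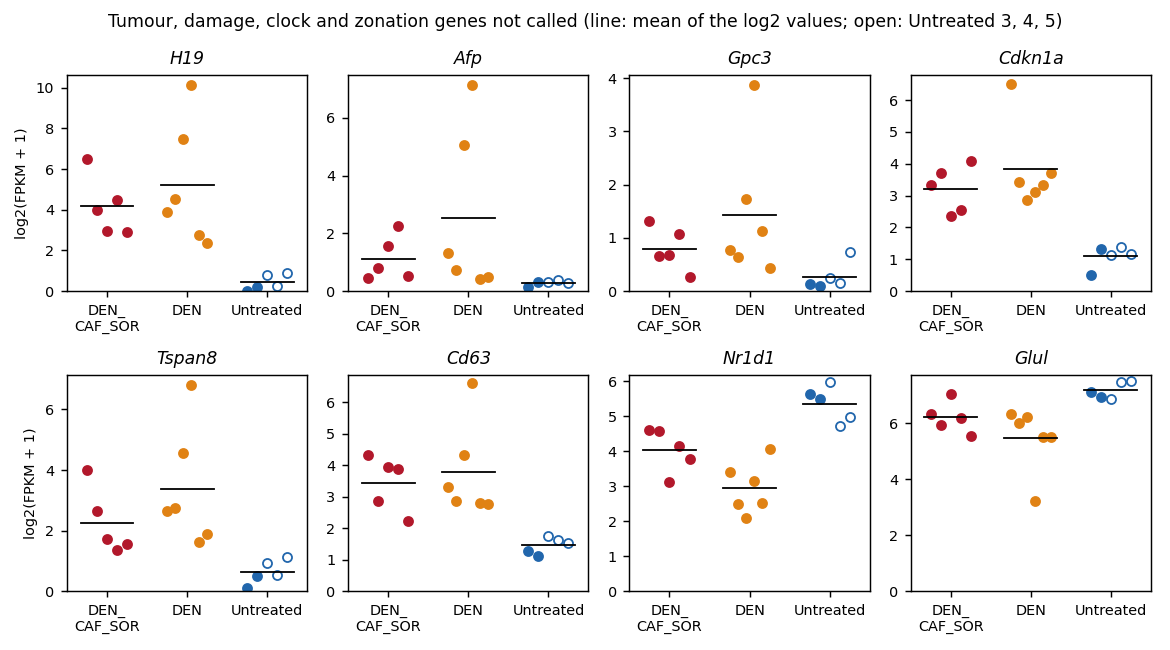
Level of 8 genes that did not pass the test in DEN_CAF_SOR against Untreated, on the log2(FPKM + 1) scale, with DEN_CAF_SOR at the left, DEN in the middle and Untreated at the right. Points are livers, lines are means of the log2 values and open points are Untreated 3, 4 and 5. For H19, Afp, Cdkn1a, Tspan8 and Cd63 all DEN_CAF_SOR points lie above all Untreated points, and the highest H19 and Afp points are DEN livers.

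Spp1 is also a marker of bile duct cells, and other markers of these cells did not pass the test. Krt19, a keratin of bile duct cells, had 1.14 to 11.3 FPKM in DEN_CAF_SOR and 0.0639 to 1.08 FPKM in Untreated livers (adjusted p = 0.16, edgeR 0.0401). Epcam, an adhesion molecule of the same cells, had 0.704 to 6.72 FPKM in DEN_CAF_SOR and 0.142 to 0.527 FPKM in Untreated livers (adjusted p = 0.16, edgeR 0.0106). In the bile duct list 1 of 16 tested genes (Spp1) was called, against 0.494% of all genes tested. In this list 6 genes had all DEN_CAF_SOR livers above all Untreated livers, against 3.12% of all genes tested. The list's summed level was 563 to 1077 FPKM in DEN_CAF_SOR and 251 to 687 FPKM in Untreated livers. The part of these cells in the rise of Spp1 was not tested. In whole tissue, more cells of a type and more RNA per cell cannot be told apart.

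Anxa13, an annexin of epithelial cells (chromosome 15, 58204867 to 58261093), had 13.7, 4.78, 4.67, 1.79 and 3.45 FPKM in DEN_CAF_SOR livers, against 0.232, 0.865, 0.730, 0.302 and 0.666 FPKM in Untreated livers. The groups did not overlap, and Anxa13 rose by 1.89 ± 0.37 (adjusted p = 0.0161), a call lost without DEN_CAF_SOR 1 (adjusted p = 0.0524) and also without Untreated 4. Gldn, gliomedin, known from contacts of Schwann cells with axons, had 1.46 to 3.39 FPKM in DEN_CAF_SOR and 0.0127 to 0.161 FPKM in Untreated livers. Gldn rose by 1.63 ± 0.33 (adjusted p = 0.0219), and the call was lost without DEN_CAF_SOR 1, DEN_CAF_SOR 3, Untreated 4 or Untreated 5 (adjusted p up to 0.0742). A further 3 genes kept their calls in all 10 fits that left out 1 library, and were picked out after their values had been seen. Tinag, a basement membrane protein first described in kidney tubules, had 0.645 to 1.70 FPKM in DEN_CAF_SOR livers, and in Untreated livers it was at 0 in 4 and at 0.0701 FPKM in Untreated 5 (log2 fold change 1.09 ± 0.16, adjusted p = 0.000523). Slc6a8, the creatine transporter, had 1.51 to 2.75 FPKM in DEN_CAF_SOR and 0.3296 to 0.9446 FPKM in Untreated livers (log2 fold change 1.00 ± 0.15, adjusted p = 0.000702). Tmem43, a protein of the inner nuclear membrane, had 4.01 to 7.31 FPKM in DEN_CAF_SOR and 1.63 to 3.31 FPKM in Untreated livers (log2 fold change 0.95 ± 0.18, adjusted p = 0.00867).

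Interferon-stimulated genes respond to the cytokines that cells release on sensing foreign or misplaced nucleic acid, and 3 of 33 tested passed the test, all higher in DEN_CAF_SOR livers. They were Oas1g and Oas1a, enzymes that make 2-5A (an activator of RNase L) on binding double-stranded RNA, and Irf7, a transcription factor that amplifies interferon production. Their promoter windows, from 250 bases before to 50 bases after the annotated start, are shown because these 3 genes are the called part of the list. They come from RefSeq (build GRCm38.p6), are read on the minus strand, and capitals mark matches to the core of the interferon-stimulated response element, written as GAAA and GAAA with any 2 bases between them and searched on both strands.
Oas1a: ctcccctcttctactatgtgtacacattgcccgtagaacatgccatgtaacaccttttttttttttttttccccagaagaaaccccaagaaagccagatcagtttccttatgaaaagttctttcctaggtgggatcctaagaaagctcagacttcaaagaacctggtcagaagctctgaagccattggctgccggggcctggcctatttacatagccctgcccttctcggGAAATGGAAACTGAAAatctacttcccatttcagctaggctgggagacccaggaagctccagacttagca
Oas1g: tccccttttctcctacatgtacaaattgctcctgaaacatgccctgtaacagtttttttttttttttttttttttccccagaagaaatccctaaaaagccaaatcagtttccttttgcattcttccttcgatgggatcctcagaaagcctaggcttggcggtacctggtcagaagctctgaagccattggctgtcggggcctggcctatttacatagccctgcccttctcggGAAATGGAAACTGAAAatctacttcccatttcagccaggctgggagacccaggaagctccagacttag
Irf7: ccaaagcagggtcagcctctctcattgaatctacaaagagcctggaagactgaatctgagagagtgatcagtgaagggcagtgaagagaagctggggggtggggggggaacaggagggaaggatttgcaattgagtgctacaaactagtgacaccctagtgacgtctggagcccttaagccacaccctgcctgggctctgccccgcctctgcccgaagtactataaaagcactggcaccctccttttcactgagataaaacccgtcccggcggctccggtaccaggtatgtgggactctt
The Oas1a window lies at chr5:120907476-120907775 and the Oas1g window at chr5:120887564-120887863. Each holds 2 overlapping matches, the first beginning 20 bases before the start in Oas1a and 18 bases before it in Oas1g. The Irf7 window lies at chr7:141266375-141266674 and these letters are not in it. Of 32851 promoter windows of the same length, 3.44% held a match. The Oas1 genes are near-identical paralogues, and reads could have been split between them.

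Oas1g had 11.7, 6.76, 4.03, 4.92 and 4.47 FPKM in DEN_CAF_SOR livers, against 1.60, 1.01, 1.74, 1.44 and 1.92 FPKM in Untreated livers. It did not overlap between groups and kept its call in all 10 fits that left out 1 library (log2 fold change 1.46 ± 0.23, limma, adjusted p = 0.00152). Oas1a had 18.96, 13.8, 6.39, 5.12 and 9.00 FPKM in DEN_CAF_SOR livers, against 4.93, 2.96, 2.55, 3.60 and 3.07 FPKM in Untreated livers (log2 fold change 1.29 ± 0.27, adjusted p = 0.0235). Irf7 had 48.8, 43.0, 23.7, 36.2 and 27.0 FPKM in DEN_CAF_SOR livers, against 16.7, 12.4, 13.8, 16.5 and 15.4 FPKM in Untreated livers (log2 fold change 1.16 ± 0.26, adjusted p = 0.043). DEN_CAF_SOR 1 was the highest liver for all 3 genes. The call of Oas1a was lost without DEN_CAF_SOR 1 or 2 or Untreated 3, 4 or 5 (adjusted p up to 0.0826). That of Irf7 held without DEN_CAF_SOR 3 or 5 and was lost in the 8 other fits (adjusted p up to 0.126 without DEN_CAF_SOR 1).

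All 33 tested interferon-stimulated genes had a positive fold change (median 0.48, and 0.55 with Untreated 1 and 2 alone). Over all genes tested, 54.9% had a positive fold change, and 67.5% with Untreated 1 and 2 alone. Ribosomal protein genes were also positive in 30 of 30 tested (median 0.28). Of all genes tested, 0.494% were called and 3.12% had all DEN_CAF_SOR livers above all Untreated livers. Of the 33 interferon-stimulated genes, 7 had all DEN_CAF_SOR livers above all Untreated livers. The other 4 of these 7 did not pass limma's test. They were Ifi44 (adjusted p = 0.0609), the deubiquitinase Usp18 (0.0768), Ifi27 (0.0907) and Ifi27l2b (0.0975). The list's summed level was 570 to 1350 FPKM in DEN_CAF_SOR, 740 to 1439 FPKM in DEN and 438 to 605 FPKM in Untreated livers. Genes of MHC class II, which antigen-presenting cells use to show peptides to T cells, were positive in 6 of 6 tested (median 0.87), and none was called. Monocyte and macrophage markers were positive in 12 of 12 (median 0.54), with a summed level of 80.2 to 294 FPKM in DEN_CAF_SOR and 62.1 to 117 FPKM in Untreated livers, and none was called. The part of these cells in the interferon genes was not tested.

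Lpl, lipoprotein lipase, which releases fatty acids from circulating lipoproteins and is low in normal adult hepatocytes (chromosome 8, 69333143 to 69360100), had 27.2, 18.1, 12.1, 18.96 and 19.2 FPKM in DEN_CAF_SOR livers, against 8.86, 12.4, 2.75, 1.04 and 1.84 FPKM in Untreated livers. Lpl passed the test with all Untreated libraries (log2 fold change 1.99 ± 0.41, adjusted p = 0.0219). With Untreated 1 and 2, the 2 highest Untreated livers, the value was 0.76 (adjusted p = 0.675), and the ranges overlapped. The call of Lpl was also lost without DEN_CAF_SOR 1, DEN_CAF_SOR 4, Untreated 3, Untreated 4 or Untreated 5 (adjusted p up to 0.0767).

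Among called genes, the largest falls were in the major urinary protein cluster, which encodes pheromone carriers secreted by hepatocytes under the control of growth hormone and androgens. On chromosome 4, between 60085840 and 61719523, 24 genes were tested and 10 were called, all lower in DEN_CAF_SOR livers, a region delimited after the values were seen. Over all genes tested, 0.283% were called lower. The 10 were 8 of 9 tested Mup pseudogenes, the non-coding RNA Gm13775 and the coding gene Mup18. Mup-ps16 lies inside Gm13775 on the same strand, so these 2 calls are of overlapping annotations. Mup-ps1, Mup-ps12, Mup-ps14, Mup-ps16 and Gm13775 stayed under 1 FPKM in every DEN_CAF_SOR and DEN liver. Of these 3 groups, only Untreated livers brought them past the expression filter, so the counts in this region favour falls by design. Mup18 had 0.404, 0.587, 0.220, 0.630 and 0.778 FPKM in DEN_CAF_SOR livers, against 6.98, 5.36, 0.807, 155 and 174 FPKM in Untreated livers (log2 fold change -3.65 ± 0.85, adjusted p = 0.0487). The Untreated livers differed widely among themselves, with Untreated 3 just above the DEN_CAF_SOR range and the highest levels in Untreated 4 and 5, where Xist was high. Against Untreated 1 and 2 alone, the log2 fold change of Mup18 was -2.24 (adjusted p = 0.0854 over the same 12741 genes). In that test Mup-ps10, Mup-ps12, Mup-ps13 and Mup-ps16 did not pass either (adjusted p = 0.0589 to 0.151). Mup-ps1, Mup-ps2, Mup-ps4, Mup-ps14 and Gm13775 passed it. The call of Mup18 held without Untreated 1, 2 or 3 and was lost in the 7 other fits that left out 1 library (adjusted p up to 0.154 without Untreated 4). The pseudogene Mup-ps2 had 0.731 to 2.10 FPKM in DEN_CAF_SOR livers, against 13.4, 5.34, 19.5, 46.9 and 46.0 FPKM in Untreated livers (log2 fold change -3.30 ± 0.40, adjusted p = 9.0e-05). The smallest adjusted p of the whole comparison was that of Mup-ps1, which had 0 to 0.294 FPKM in DEN_CAF_SOR and 2.72 to 8.39 FPKM in Untreated livers (log2 fold change -2.40 ± 0.22, adjusted p = 1.23e-06). Mup genes and pseudogenes are near-identical copies, so reads could have been split among them, and Mup18 and the pseudogenes are uncertain one by one.

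The abundant Mup genes did not pass limma's test. Mup12 had 1623 to 6364 FPKM in DEN_CAF_SOR and 706 to 14352 FPKM in Untreated livers (log2 fold change 0.02, adjusted p = 0.997). Mup9 had 8.31 to 20.4 FPKM in DEN_CAF_SOR livers, against 613, 1821, 3.71, 93.8 and 193 FPKM in Untreated livers (limma adjusted p = 0.21). It passed with the other 2 tools (edgeR adjusted p = 0.0419, DESeq2 adjusted p = 0.000172). Against Untreated 1 and 2 alone, Mup9 was lower by a log2 fold change of -6.29 (adjusted p = 0.0344 over the same 12741 genes), and all DEN_CAF_SOR livers were below both.

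Among called coding genes outside that cluster, the largest fall was that of Rfx4, a transcription factor of the RFX family best known from brain and testis (chromosome 10, 84591926 to 84742402). Rfx4 had 0.102, 0.433, 0.249, 0.541 and 0.530 FPKM in DEN_CAF_SOR livers, against 2.38, 1.74, 5.64, 3.46 and 4.92 FPKM in Untreated livers (log2 fold change -1.69 ± 0.19, limma, adjusted p = 3.26e-05). Dct, dopachrome tautomerase of the melanin pathway, had 0.555 to 0.994 FPKM in DEN_CAF_SOR and 1.95 to 7.60 FPKM in Untreated livers (log2 fold change -1.37 ± 0.24, adjusted p = 0.00575). Nxpe2 (chromosome 9, 48229306 to 48264754) had 1.47, 1.96, 1.51, 0.844 and 0.637 FPKM in DEN_CAF_SOR livers, against 3.50, 5.75, 4.80, 3.70 and 3.83 FPKM in Untreated livers (log2 fold change -1.23 ± 0.16, adjusted p = 0.000168). The groups did not overlap for these 3 genes, and all 3 were called in all 10 fits that left out 1 library. Rfx4 stayed under 1 FPKM in every DEN_CAF_SOR and DEN liver. Of DEN_CAF_SOR, DEN and Untreated livers, only Untreated livers brought Rfx4 past the expression filter, which favours a fall by design.

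Camk1d, a calcium- and calmodulin-dependent kinase (chromosome 2, 5298268 to 5719326), had 2.45, 2.504, 1.88, 2.48 and 2.87 FPKM in DEN_CAF_SOR livers, against 6.35, 5.67, 7.55, 6.88 and 6.05 FPKM in Untreated livers (log2 fold change -1.13 ± 0.15, adjusted p = 0.000168). Gna14, a G protein alpha subunit of the Gq class, had 0.358 to 0.781 FPKM in DEN_CAF_SOR and 1.36 to 3.52 FPKM in Untreated livers (log2 fold change -1.01 ± 0.16, adjusted p = 0.00173). Both kept their calls in all 10 fits. Gna14, like Rfx4, stayed under 1 FPKM in every DEN_CAF_SOR and DEN liver, so the expression filter favours its fall in the same way. Lifr, the receptor for leukaemia inhibitory factor, had 10.8 to 18.9 FPKM in DEN_CAF_SOR and 25.7 to 52.7 FPKM in Untreated livers (log2 fold change -1.26 ± 0.27, adjusted p = 0.0287), a call that held in 3 of 10 fits, those without DEN_CAF_SOR 2, Untreated 1 or Untreated 3 (adjusted p up to 0.0885). Sned1, an extracellular matrix protein, had 1.79 to 2.64 FPKM in DEN_CAF_SOR and 3.69 to 10.1 FPKM in Untreated livers (log2 fold change -1.18 ± 0.24, adjusted p = 0.0219), and its call was lost without DEN_CAF_SOR 1, 3 or 4 or Untreated 3 or 4 (adjusted p up to 0.0796). With Untreated 1 and 2 alone the fold change of Sned1 was -0.69 (adjusted p = 0.572). Spry4, a feedback inhibitor of receptor tyrosine kinase signalling to RAS and MAPK (chromosome 18, 38719300 to 38734468), had 1.27, 1.06, 0.701, 0.392 and 0.912 FPKM in DEN_CAF_SOR livers, against 2.22, 2.18, 2.04, 2.82 and 1.77 FPKM in Untreated livers. Spry4 fell by 0.79 ± 0.15 on the log2 scale (adjusted p = 0.015; 0.0612 without Untreated 4, and also lost without DEN_CAF_SOR 4). It was the single called member of 14 tested MAPK output genes (median -0.05), against 0.494% called over all genes tested. The ERK phosphatase Dusp6, from the same feedback, averaged 8.90 FPKM in DEN_CAF_SOR and 14.9 FPKM in Untreated livers (adjusted p = 0.462).

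**Figure D4:**
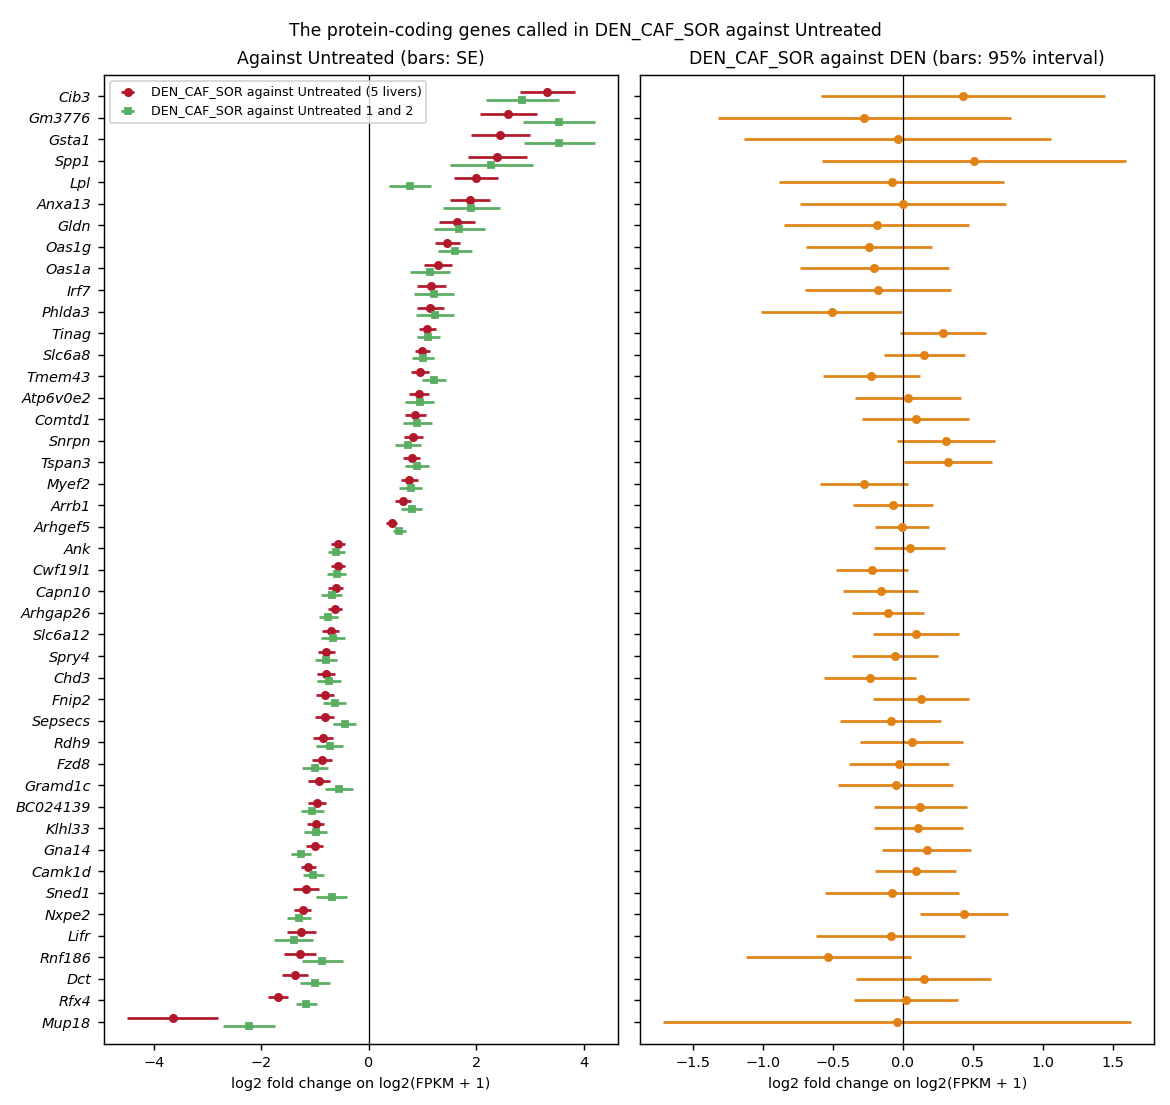
The 44 called protein-coding genes, with the log2 fold change of DEN_CAF_SOR against all 5 Untreated livers and against Untreated 1 and 2 at the left (bars are SE) and of DEN_CAF_SOR against DEN at the right (bars are 95% intervals). Direction is the same for all 44 with both sets of Untreated livers, which share Untreated 1 and 2. Lpl lies at 1.99 against all 5 and 0.76 against Untreated 1 and 2, and the intervals against DEN leave out 0 for Nxpe2, Tspan3 and Phlda3.

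With Untreated 1 and 2 as the only Untreated libraries, 3 of 12562 genes (0.0239%) passed limma's test: Nxpe2, Mup-ps2 and Mup-ps4, all lower. The expression filter, recomputed on the 22 remaining libraries, had dropped 8 of the 63 genes. On the same 12741 genes, an alternative added after the data had been seen, 16 passed (0.126%), 5 higher (0.0392%) and 11 lower (0.0863%), and 13 of the 16 were among the 63. The 5 higher were Gsta1, Gm3776, Tinag, Tmem43 and Cd36, a fatty acid transporter. Cd36 had 9.99 to 17.3 FPKM in DEN_CAF_SOR livers, against 0.833 and 3.58 FPKM in Untreated 1 and 2 (log2 fold change 2.23, adjusted p = 0.0460), while Untreated 3, 4 and 5 had 9.70, 10.8 and 9.74 FPKM. Of the 11 lower genes, Rfx4 (-1.16, adjusted p = 0.0118), Nxpe2 (-1.30, 0.0158), Gna14 (-1.27, 0.00654) and Camk1d (-1.03, 0.0451) are coding genes described above, as is Mup9. The filter that gave these 12741 genes used Untreated 3, 4 and 5 too, so this test is not free of those livers. Rfx4 and Gna14, under 1 FPKM in every DEN_CAF_SOR and DEN liver, were not among the 3 genes that passed with the recomputed filter. The same holds for Mup-ps1, Mup-ps14 and Gm13775. All 63 genes kept their direction against Untreated 1 and 2, and for 60 no DEN_CAF_SOR liver lay within the range of these 2 livers. These 2 livers are among the 5 that gave the 63 calls, so neither count is a separate check. For the 56 genes without overlap between DEN_CAF_SOR and all 5 Untreated livers, both outcomes were fixed in advance. For 3 genes the fold change was much smaller with Untreated 1 and 2 than with all 5: 0.76 against 1.99 for Lpl, 0.52 against 1.38 for the Y-linked Gm29650, and 0.91 against 1.88 for the pseudogene Gstp-ps.

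A pair of lists moved with the choice of Untreated libraries. The median log2 fold change of 38 tested female-biased liver genes was -1.65 against all Untreated livers and 0.45 against Untreated 1 and 2. That of 43 tested male-biased genes was 0.37 against all and -0.80 against Untreated 1 and 2. With all Untreated livers, Lpl was the single called gene of the female-biased list, and Cib3 (higher) and Mup18 (lower) were those of the male-biased list. In these livers Lpl went against its list's name, with 8.86 and 12.4 FPKM in Untreated 1 and 2 and 1.04 to 2.75 FPKM in Untreated 3, 4 and 5. Mup18 had 6.98 and 5.36 FPKM in Untreated 1 and 2, and 0.807, 155 and 174 FPKM in Untreated 3, 4 and 5. The median of all genes was 0.03 against all and 0.11 against Untreated 1 and 2. Of 46 lists, 9 held a called gene.

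**Figure D5:**
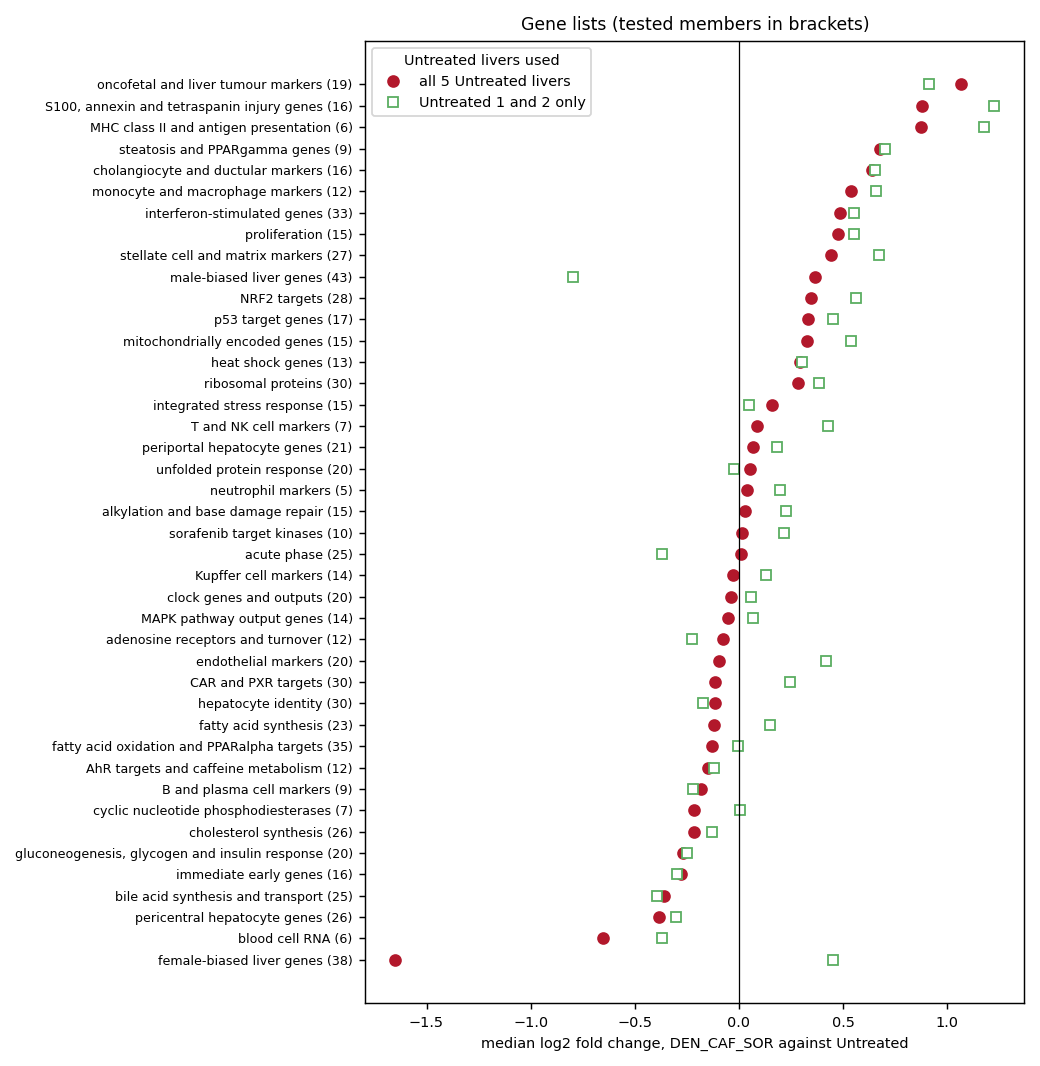
Median log2 fold change of each gene list with 5 or more tested members (number in brackets) in DEN_CAF_SOR against all 5 Untreated livers (filled) and against Untreated 1 and 2 (open). Female-biased genes lie at -1.65 and 0.45 and male-biased genes at 0.37 and -0.80, while oncofetal markers stay at 1.07 and 0.91.

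In DEN against Untreated, the comparison for the carcinogen alone, 260 of the 12741 genes passed the same test (2.04%). Untreated 3, 4 and 5, where Xist was high, are part of it, so not every call can be credited to the carcinogen. Cyp2c69 and Cyp2c40, both called, had log2 fold changes of -3.81 and -3.36 in DEN against all Untreated livers. Against Untreated 1 and 2 they had 0.30 and -0.01. For Nxpe2 the values were -1.67 against all and -1.74 against Untreated 1 and 2. Of the 63 genes called with both drugs, 56 were called in the same direction with the carcinogen alone, which is 88.9% of the 63 and 21.5% of the 260. Both comparisons use the same Untreated livers, so their calls are not independent. With Untreated 1 and 2 as the only Untreated libraries, 3 genes were called in the same direction in both comparisons, all lower. For all 63 genes the ranges of DEN_CAF_SOR and DEN livers overlapped. Side by side, the log2 fold changes in DEN_CAF_SOR and in DEN livers against Untreated were 3.32 and 2.89 for Cib3, 2.45 and 2.48 for Gsta1, 1.46 and 1.70 for Oas1g, and 1.14 and 1.65 for Phlda3. For genes that fell they were -1.69 and -1.71 for Rfx4, -1.23 and -1.67 for Nxpe2, and -1.13 and -1.22 for Camk1d.

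The other 7 of the 63 were not called in DEN against Untreated. They were Spp1 (adjusted p in DEN = 0.0607), Tspan3 and Snrpn, which were higher, and Rnf186, Chd3, Capn10 and Cwf19l1, which were lower in DEN_CAF_SOR livers. Tspan3, a tetraspanin, had 1.35 to 3.50 FPKM in DEN_CAF_SOR, 0.973 to 2.70 FPKM in DEN and 0.694 to 1.10 FPKM in Untreated livers (against Untreated 0.80 ± 0.16, adjusted p = 0.019, lost without DEN_CAF_SOR 1 or 2 at up to 0.0676). Its 95% interval against DEN was 0.01 to 0.64. The chromatin remodeller Chd3 had 4.04 to 6.33 FPKM in DEN_CAF_SOR, 4.41 to 10.04 FPKM in DEN and 8.40 to 12.4 FPKM in Untreated livers (-0.81 ± 0.17, adjusted p = 0.0228, lost without DEN_CAF_SOR 4, Untreated 3 or Untreated 4 at up to 0.0933). Its interval against DEN was -0.57 to 0.10. None of the 7 passed the direct test against DEN.

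In DEN_CAF_SOR against DEN livers, the direct test of what both drugs changed after the carcinogen, limma, edgeR and DESeq2 each called 0 of 12741 genes, the smallest limma adjusted p was 1.00, and 346 (2.72%) had an unadjusted p under 0.05. None of the 204 genes called with the carcinogen alone and not with both drugs passed this test, so a lost call does not show that the drugs moved the gene. For most called genes the 95% intervals of the difference include 0 and are wide: -0.59 to 1.45 for Cib3, -1.13 to 1.06 for Gsta1, -0.70 to 0.34 for Irf7 and -0.35 to 0.40 for Rfx4. For Phlda3 the interval was -1.01 to -0.004, with 2.04 to 3.56 FPKM in DEN_CAF_SOR and 2.06 to 7.42 FPKM in DEN livers, and for Nxpe2 it was 0.12 to 0.75. These single intervals were not adjusted for the number of genes, and the adjusted p-values were 1.00. For H19 the interval was -3.01 to 0.93 and for Afp -3.13 to 0.32, where DEN 3 and DEN 4 held the highest values (179 and 1130 FPKM of H19, 32.1 and 141 FPKM of Afp). DEN 4 also had a Ddx3y level of 1.29 FPKM against 13.1 to 15.9 FPKM in the other DEN livers, and mitochondrial reads took 33.4% in DEN 3.

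For lists of hepatocyte functions and of genes on which the drugs act, the share called over all genes was 0.494%, so a list of this size without a call is near the background. None of 26 tested pericentral genes was called, and 4 had a positive fold change (median -0.38). Glul, the glutamine synthetase of the innermost pericentral hepatocytes, had 79.5, 60.3, 131, 71.8 and 45.6 FPKM in DEN_CAF_SOR livers, against 137, 120, 116, 178 and 182 FPKM in Untreated livers. DEN_CAF_SOR 3 lay inside the Untreated range (log2 fold change -0.97 ± 0.40, adjusted p = 0.351). Cyp2e1, the main DEN-activating P450, averaged 1687 FPKM in DEN_CAF_SOR and 3101 FPKM in Untreated livers with no overlap (adjusted p = 0.712). Cyp1a2 had 234, 272, 104, 197 and 309 FPKM in DEN_CAF_SOR livers, against 408, 210, 195, 226 and 187 FPKM in Untreated livers, and the groups overlapped (log2 fold change -0.16 ± 0.63, adjusted p = 0.955). Its sign changed in 3 of the alternatives. In bile acid synthesis and transport, 4 of 25 tested genes had a positive fold change, none was called and the median was -0.36. The uptake transporter Slc10a1 had 164 to 216 FPKM in DEN_CAF_SOR, 17.8 to 202 FPKM in DEN and 220 to 339 FPKM in Untreated livers (against Untreated adjusted p = 0.67, 95% interval against DEN 0.14 to 1.89). None of 21 periportal genes (median 0.07) and none of 30 hepatocyte identity genes (median -0.12) was called.

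Of 10 tested sorafenib target kinases none passed (median 0.02). Of 12 tested genes of adenosine reception and turnover none passed limma's test. Nt5e, the ectoenzyme that makes adenosine from AMP, averaged 0.972 FPKM in DEN_CAF_SOR and 6.35 FPKM in Untreated livers with overlapping ranges (log2 fold change -1.66, adjusted p = 0.112, edgeR 0.0345), and against Untreated 1 and 2 its log2 fold change was -0.52. Enpp1, an ectoenzyme that cleaves ATP to AMP, averaged 1.71 FPKM in DEN_CAF_SOR and 2.54 FPKM in Untreated livers with no overlap (log2 fold change -0.39, adjusted p = 0.0562, edgeR 0.0470). Of 12 tested genes of the AhR pathway and caffeine metabolism none passed, and 2 had a positive fold change (median -0.15).

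The clock gene Nr1d1 (REV-ERB alpha, a repressor of the activator BMAL1) had 23.5, 22.7, 7.74, 16.9 and 12.6 FPKM in DEN_CAF_SOR livers, 3.28 to 15.9 FPKM in DEN livers and 49.0, 43.9, 62.7, 25.4 and 30.3 FPKM in Untreated livers. All DEN_CAF_SOR livers lay below all Untreated livers without passing the test (log2 fold change -1.31 ± 0.43, adjusted p = 0.191). Against DEN the interval was 0.25 to 1.94, and for its relative Nr1d2 0.51 to 1.52, both with an adjusted p of 1.00. Dbp, an output regulator of the clock, had 8.61, 5.48, 67.5, 25.2 and 1.32 FPKM in DEN_CAF_SOR livers, against 71.1, 35.03, 70.6, 1.87 and 9.47 FPKM in Untreated livers. In DEN livers Dbp ran from 0.687 to 3.40 FPKM. Its spread exceeded 10-fold within DEN_CAF_SOR and within Untreated, and its highest DEN_CAF_SOR levels were in DEN_CAF_SOR 3 and 4, the 2 libraries with 15.7% and 18.7% mitochondrial reads. DEN 3, with 33.4% mitochondrial reads, had 1.78 FPKM of Dbp. The highest Untreated levels were in Untreated 1 (71.1 FPKM), with 6.80% mitochondrial reads, and Untreated 3 (70.6 FPKM), with 13.5%. Per3 was likewise highest in DEN_CAF_SOR 3 and 4 (6.70 and 1.67 FPKM, against 0.301 to 0.626 FPKM in the other DEN_CAF_SOR livers). Nfil3, which opposes DBP, was lowest in DEN_CAF_SOR 3 and 4 (2.35 and 8.55 FPKM, against 19.1 to 24.7 FPKM). The part of sampling time or library quality in this was not tested. The immediate early gene Egr1, which growth factor signals switch on within minutes, had 7.12 to 13.4 FPKM in DEN_CAF_SOR, 3.07 to 10.5 FPKM in DEN and 12.6 to 24.9 FPKM in Untreated livers (adjusted p against Untreated = 0.441, interval against DEN 0.17 to 1.77).

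Markers of further cell types held no called gene, which for lists of this size is near the background share. Kupffer cell markers had a median log2 fold change of -0.03 over 14 tested genes, endothelial markers -0.10 over 20, stellate cell and matrix markers 0.44 over 27, and B and plasma cell markers -0.18 over 9. Blood cell RNA had a median of -0.65 over 6 tested genes, with a summed level of 341 to 982 FPKM in DEN_CAF_SOR and 714 to 2329 FPKM in Untreated livers.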

How the data were processed

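RNA of 25 livers was sequenced, and the 5 DEN_CAF_SOR, 6 DEN and 5 Untreated libraries were compared. Alignment used HISAT2 2.0.5 and counting featureCounts 1.5.0-p3 on GRCm39 (mm39); both and the build are per the submitters' processing notes. Neither an annotation release nor a strand setting was found in the labels, which leaves genes that overlap or lie antisense to another uncertain. The deposited values are a signal, each being a whole number of reads over a constant of its library, and not FPKM as the tables are named. There was a separate table for each of the 5 groups. All values came out whole within 0.01 read, so reads were recovered and the 5 tables rescaled together. FPKM was computed from reads, library total and listed gene length. The design had assumed FPKM values, and limma on these FPKM remained the test.

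Of 30524 listed genes, 24774 stood in all tables, of which 12741 reached 1 FPKM in 4 libraries and entered the test. limma 3.58.1 (R 4.3.3) was fitted to log2(FPKM + 1) with an eBayes trend and 1 coefficient per group over all 25 libraries (20 residual degrees of freedom). It was two-sided, with Benjamini-Hochberg adjustment over all tested genes at 0.05. The log2(FPKM + 1) scale understates the change of low genes. edgeR 4.0.16 (quasi-likelihood) and DESeq2 1.42.0 on the recovered reads were alternatives. An adjusted p without a tool's name is from limma. Chi-square per degree of freedom between libraries of a group was 19.0 to 423 over 35 pairs, above counting noise, so no library repeats another. The deviations of same-numbered libraries from their group means correlated at -0.228 to -0.001 between DEN_CAF_SOR and Untreated, -0.237 to 0.399 between DEN_CAF_SOR and DEN, and -0.0698 to 0.443 between DEN and Untreated. In no pair of groups was every correlation above 0.1, so numbers were not taken as pairs.

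Named genes are the 8 largest rises and 8 largest falls among called coding genes with non-overlapping groups, leaving out clone names and genes whose mean stayed under 1 FPKM in both arms, up to 3 called members of each gene list, and 13 genes named in advance. Other genes are named after their values were seen. The members, the 46 lists (909 genes, 748 tested) and the tests were chosen with earlier results of these data known. Promoter sequences are RefSeq's.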

Additional observations from a re-analysis of the deposited data

Results flagged for a closer look

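Among 58 groups of 5 livers, DEN_CAF_SOR or Untreated, examined for the named genes and the mitochondrial share, 4 (6.90%) held a liver set far apart from the rest of its group, and chance alone marks about 1 in 20. Sned1 was 1.79 FPKM in DEN_CAF_SOR 3, below the 2.37 to 2.64 FPKM of the other DEN_CAF_SOR livers. Gpc3 was 0.656 FPKM in Untreated 5, above the rest of the Untreated livers, where it ran up to 0.186 FPKM. Cdkn1a was 0.412 FPKM in Untreated 1, below the 1.20 to 1.59 FPKM of the remaining Untreated livers. Cyp1a2 was 408 FPKM in Untreated 1, above the 187 to 226 FPKM of the remaining Untreated livers.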

How the results depend on the processing

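The count of genes called in DEN_CAF_SOR against Untreated (63) was 26 with an FPKM minimum of 5, 34 with only the libraries numbered 1, 2, 5 and 6, 100 with a pseudocount of 0.1, 102 with a term for libraries numbered 3 and 4, 111 with TMM and 112 with DESeq2 size factor scaling, 150 with only the 2 groups in the fit, 166 with edgeR, 395 with DESeq2 and 3 with Untreated 1 and 2 only; leaving out 1 library gave 34 to 73. The count of genes called in the same direction in DEN (56) was 25, 32, 89, 86, 98, 95, 50, 144, 323 and 3 under the same settings in that order, and 30 to 97 without 1 library, with 97 without DEN 4. The count against Untreated 1 and 2 (3) was 0 with an FPKM minimum of 5, 1 with edgeR, 6 with only the groups compared, 6 with the term, 16 with a pseudocount of 0.1, 16 with the genes tested with all libraries, 17 with DESeq2 size factors, 18 with TMM, 42 without the filter and 99 with DESeq2, and 0 to 5 without 1 library. The count against DEN was 0 in every alternative tried. With the replicate number as a block, 70 genes were called against Untreated (35 higher and 35 lower), 61 in the same direction in DEN and 0 against DEN; the deviations of same-numbered libraries correlated above 0.1 for 4 of 5 numbers between DEN_CAF_SOR and DEN and for 1 of 5 between DEN and Untreated (0.443, number 3). A library correlated best with its own number once in each of these, and never between DEN_CAF_SOR and Untreated. Cyp1a2 changed sign (0.10 with only the libraries numbered 1, 2, 5 and 6, 0.0928 without DEN_CAF_SOR 3, 0.0423 without Untreated 1; -0.2958 to 0.0928 without 1 library). Over 676 settings of 29 named genes, 538 kept direction and call, 122 lost the call, 13 gained it and 3 changed sign. The causes were not tested. Read depth was not varied.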
